A study of Sus scrofa with 5 samples.

Results

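Interferon response and antigen processing genes were described in the backfat of 5 pigs measured on Affymetrix porcine arrays, with 1 array per animal. The genes were taken as a list of 35 symbols grouped by known role, and 25 of the 35 had a probe set annotated with that symbol alone. In the whole series 6765 genes had such a probe set. Where a gene had several probe sets, the brightest over the 5 arrays was used. OAS2, CMPK2, IFITM1, IFITM2, IFITM3, HERC5, BST2, IFIH1, PSMB9 and TAP2 were not measured by a probe set of their own, so 14 of 21 antiviral effectors, 4 of 5 sensors and transcription factors, 4 of 5 subunits of the immunoproteasome and its activator, and 3 of 4 genes of peptide transport and class I assembly remained. ISG20 sat at the lower limit of the values (the floor, 2.17) on all 5 arrays, which left 24 genes with a level.

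All 5 animals were females of 1 Iberian x Landrace backcross, raised on a cereal-based commercial diet given ad libitum and fasted at slaughter, with sibs avoided within a group. They came from the extremes of a score of carcass traits and of the fatty acids of muscle, not of backfat. The intramuscular fat of the H group (here BC4, BC5 and BC6) held more polyunsaturated fatty acids, and that of the L group (here BC2 and BC3) more saturated and monounsaturated ones. Neither the labels nor the methods name a treatment, a vaccination or an infection. Every p-value measures the spread between these individual pigs, and 3 animals against 2 give little precision. In bulk tissue, fewer cells of a type and less RNA per cell cannot be told apart.

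Interferons are secreted when cells sense viral nucleic acid, and they bind receptors that act through JAK kinases and STAT proteins to switch on a large set of antiviral genes. Many effectors of this set are kept at a low level in healthy tissue and are induced together. Interferon also raises the immunoproteasome, which cuts proteins into peptides, the TAP transporter, which carries these into the endoplasmic reticulum, and the class I molecules that show them to T cells. Adipocytes and the macrophages and endothelial cells around them can all respond to interferon.

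The main feature of these genes in backfat was a difference between animals of the same group. BC4 was below BC5, and also below BC6, in 10 of 13 antiviral effectors above the floor (all but IFIT2, GBP1 and GBP2), although all 3 are H animals. The gap to BC5 was largest in ISG15, ZBP1, IFIT3, RSAD2, OAS1 and USP18 (2.47 to 6.50-fold, and 2.17 to 7.91-fold to BC6). Over all 24 members BC5 was above BC4 in 20 and BC6 was above BC4 in 14. In the L group nearly all members were lower in BC2 than in BC3. No member passed the thresholds for H against L (0 of 24 above the floor, limma p of 0.01, adjusted p of 0.1 and fold of 1.2), against 0.0% of all 23935 probe sets, and each had an adjusted p = 1 from limma. At an unadjusted p under 0.05 there was 1 member of 24, STAT2, against 5.11% of the 5817 genes above the floor.

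**Figure D1:**
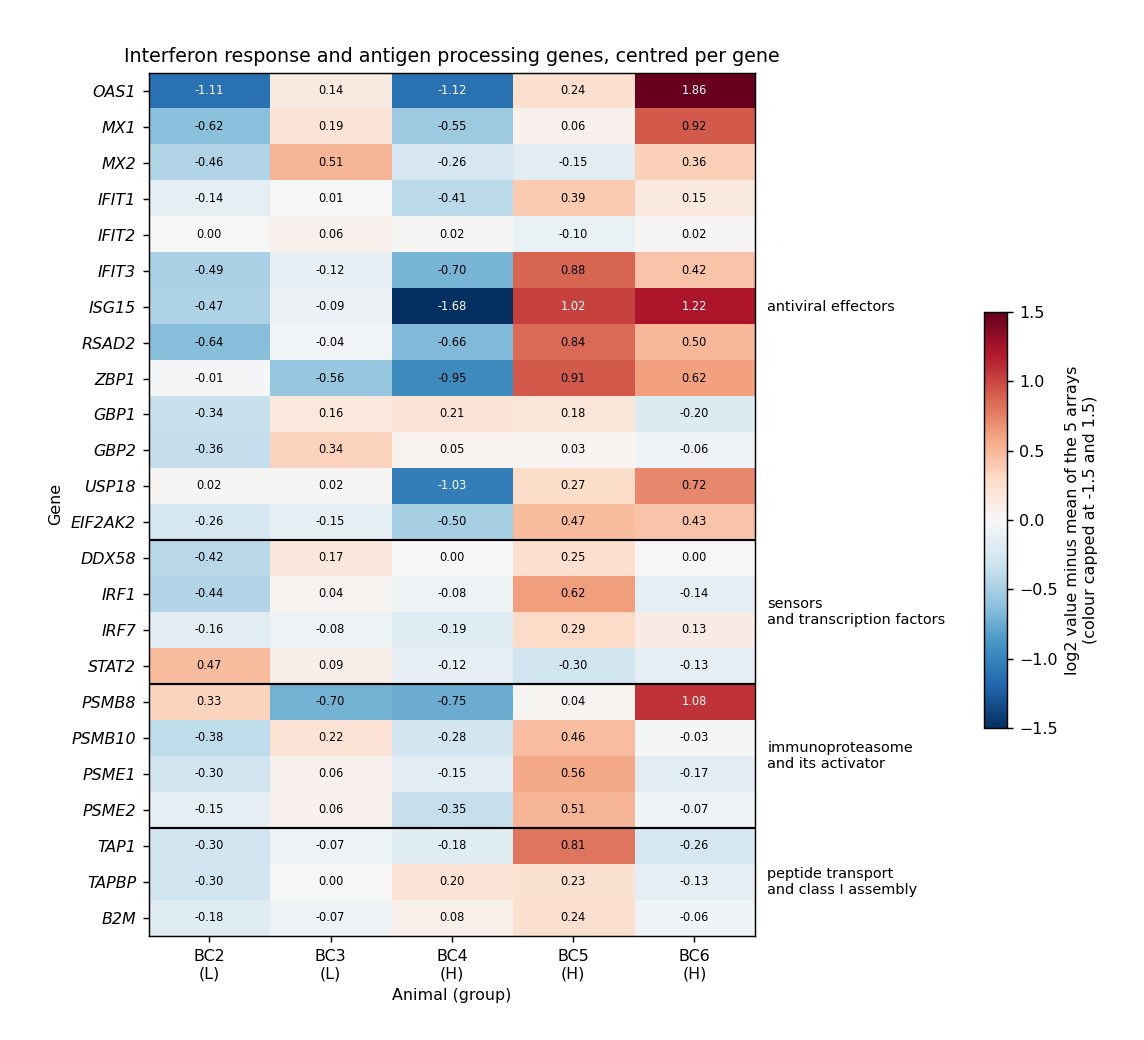
Log2 value of each of the 24 genes above the floor on each array, minus the mean of that gene over the 5 arrays, with genes in rows by role and animals in columns (groups in parentheses, red above and blue below the mean, colour capped at -1.5 and 1.5). ISG15 in BC4 (-1.68) and OAS1 in BC6 (1.86) are the extremes, and BC4 and BC2 are blue for most antiviral effectors.

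Among the direct antiviral effectors, OAS1 senses double-stranded RNA and makes the messenger that activates RNase L. Its log2 values were 6.55 and 7.80 in the L animals BC2 and BC3, and 6.54, 7.91 and 9.52 in the H animals BC4, BC5 and BC6. BC4 and BC2 were close together at the bottom, BC3 and BC5 in the middle and BC6 alone at the top, so the groups overlapped. BC6 stood 7.91-fold above BC4, whereas H minus L was 0.82 on the log2 scale with a standard error of 1.14 (95% interval -2.61 to 4.24, n = 3 and 2).

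MX1 and MX2 encode dynamin-like GTPases that trap viral components. MX1 was at 7.49 in BC2, 8.30 in BC3, 7.56 in BC4, 8.17 in BC5 and 9.02 in BC6. As for OAS1, BC2 and BC4 were low, BC3 and BC5 in the middle and BC6 high. MX2, which lies 1 gene away from MX1 in the RefSeq order of genes, was at 6.23, 7.20, 6.43, 6.54 and 7.05 in the same order of animals. Here an L animal, BC3, was the highest and BC2 the lowest. H minus L was 0.36 (SE 0.59) for MX1 and -0.04 (SE 0.41) for MX2.

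The IFIT proteins bind foreign RNA and block its translation. IFIT3 was at 6.99 and 7.36 in the L animals and at 6.79, 8.36 and 7.91 in BC4, BC5 and BC6. IFIT1 moved less, with 9.44 and 9.59 in the L animals and 9.18, 9.98 and 9.74 in the H animals. At these probe sets both were lowest in BC4 and highest in BC5, with both L animals in between. The 3 probe sets of IFIT1 were all highest in BC5 but disagreed on BC4. The dimmest of them read 8.025 in BC4, above the L animals BC2 and BC3 (7.83 and 7.82). H minus L was 0.51 (SE 0.59) for IFIT3 and 0.11 (SE 0.29) for IFIT1. IFIT2, which adjoins IFIT3, stayed within 7.91 to 8.07 over the 5 animals at its brightest probe set. Its H minus L was -0.05 (SE 0.05), but another of its 3 probe sets gave a difference of 0.33, so the probe sets of this gene disagree.

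ISG15 is a ubiquitin-like protein that is joined to many others after interferon, and USP18 is the protease that takes it off again and also damps the interferon receptor. ISG15 was at 6.77 and 7.15 in the L animals, against 5.56 in BC4, 8.26 in BC5 and 8.46 in BC6. The H group thus held both the lowest and the highest values, and BC5 and BC6 were 6.50 and 7.45 times the level of BC4. USP18 had the same shape: the L animals were alike at 8.39 and 8.39, BC4 was below them at 7.34, and BC5 and BC6 were above them at 8.64 and 9.09. Its group means differed by -0.03 (SE 0.64) and those of ISG15 by 0.47 (SE 1.15), in both cases less than the SD among the H animals (0.91 and 1.62, n = 3).

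RSAD2, which encodes viperin, an enzyme that makes a chain-terminating nucleotide, was at 7.46 and 8.05 in the L animals and at 7.43, 8.94 and 8.59 in BC4, BC5 and BC6. A control probe set annotated with RSAD2, at the 3′ end of the transcript, read 6.19, 6.58, 5.96, 7.68 and 7.14 in BC2 to BC6. The 5 animals stood in the same order on both, from BC4 at the bottom through BC2, BC3 and BC6 to BC5 at the top. The control sets in the middle and at the 5′ end of the transcript stayed within 2.18 to 2.41, close to the floor. At its main probe set H minus L was 0.57 (SE 0.60).

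ZBP1, a sensor of left-handed nucleic acid that can trigger cell death, was at 4.73 and 4.18 in the L animals and 3.79, 5.66 and 5.36 in the H animals. EIF2AK2, the kinase PKR that halts translation, was at 7.90 and 8.01 against 7.66, 8.63 and 8.59. For both genes BC4 was below both L animals, and BC5 and BC6 were above them. H minus L was 0.48 (SE 0.73) for ZBP1 and 0.34 (SE 0.39) for EIF2AK2.

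The guanylate-binding proteins, GTPases that are mainly driven by interferon gamma, behaved otherwise. GBP1 was at 11.59 and 12.08 in the L animals and 12.13, 12.10 and 11.72 in the H animals. GBP2, its direct neighbour, was at 7.97 and 8.66 against 8.37, 8.35 and 8.27. For GBP1 the H animal BC4 was the highest, for GBP2 the L animal BC3, and BC2 was the lowest for both. The SD among the 3 H animals was only 0.06 for GBP2, and H minus L was 0.01 (SE 0.25).

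**Figure D2:**
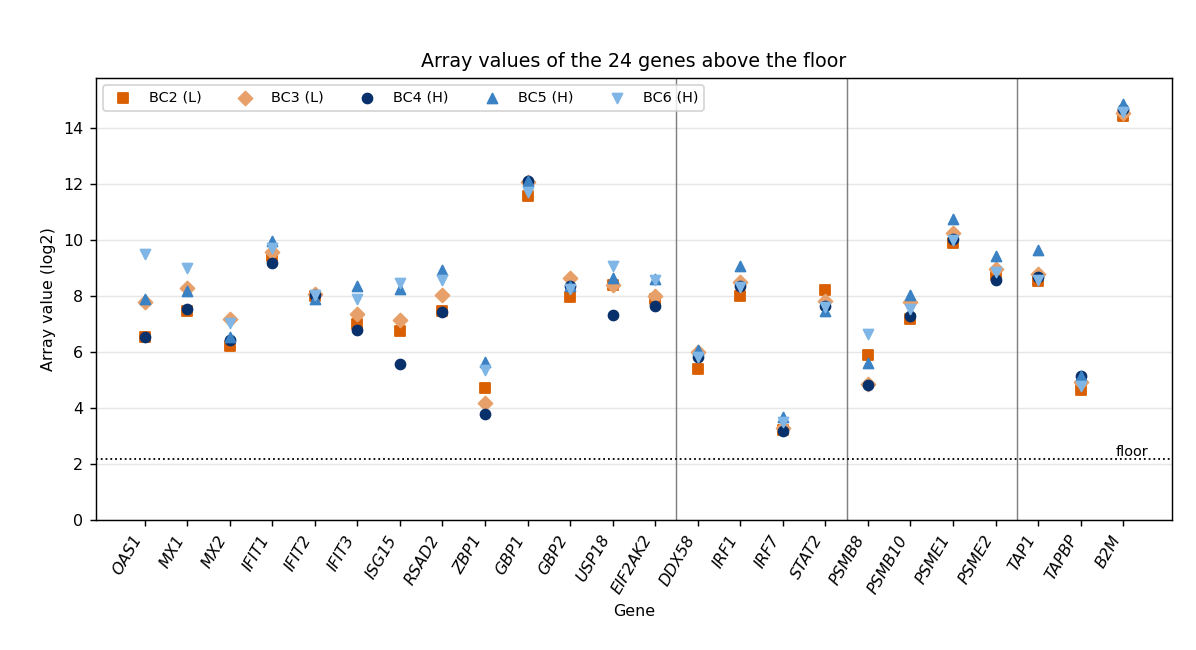
Log2 array value of each of the 24 genes above the floor, with 1 symbol per animal (orange squares and diamonds for L, blue circles and triangles for H), the floor as a dotted line and vertical lines between the roles. The symbols spread widest for OAS1 and ISG15, whose dark BC4 circle lies at or near the bottom, and narrowest for IFIT2 (7.91 to 8.07).

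Over the 13 effectors above the floor, BC4 was the lowest of the 3 H animals in 10 (14 of all 24 members, against 24.4% of all genes above the floor). The range over the 5 arrays exceeded 1 on the log2 scale in 7 effectors and in 10 of the 24 members, against 24.0% of all genes. The median SD of the 24 was 0.37, against 0.24 over all genes. BC5 was above BC4 in 20 of 24 members (42.4% of all genes), by a median of 0.73, and BC6 was above BC4 in 14 of 24 (44.1%), 10 of them effectors. For the effectors alone the median gap of BC6 over BC4 was 1.12 and that of BC5 over BC4 0.97, while the median of all genes was 0.00 for both gaps.

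In the L group, BC3 was above BC2 in 21 of 24 members, against 51.9% of all genes, by a median of 0.33. The exceptions were ZBP1, STAT2 and PSMB8. The difference of the group means was smaller than the SD among the 3 H animals in 20 of 24 members, against 58.8% of all genes.

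Among the sensors and transcription factors, DDX58 encodes RIG-I, which detects viral RNA in the cytoplasm. It was at 5.41 and 6.0 in the L animals and 5.83, 6.08 and 5.83 in the H animals. IRF1, the factor that carries the interferon gamma signal to class I genes, was at 8.01 and 8.49 against 8.38, 9.08 and 8.32. Both were highest in BC5 and lowest in BC2, while BC4 and BC6 lay between the L animals. IRF7, the factor that amplifies interferon alpha, ranged from 3.20 in BC4 to 3.67 in BC5. As H minus L, the means gave 0.21 (SE 0.23) for DDX58, 0.34 (SE 0.34) for IRF1 and 0.19 (SE 0.17) for IRF7.

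STAT2, a transcription factor that type I interferon activates, went the other way. It was at 8.23 and 7.85 in BC2 and BC3 and at 7.64, 7.46 and 7.63 in BC4, BC5 and BC6. Every H animal was below both L animals, and BC5, the animal with the highest values of most members, was the lowest. The means were 7.57 ± 0.10 in H and 8.04 ± 0.27 in L (SD, n = 3 and 2), a difference of -0.46 on the log2 scale (SE 0.15, 95% interval -0.93 to -0.0026), with an unadjusted p = 0.0493 and an adjusted p = 1 from limma. Without BC2 the difference was -0.27 and without BC3 -0.66.

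In the immunoproteasome, PSMB8 and PSMB10 are inducible catalytic subunits, and PSME1 and PSME2 form the activator that opens its gate. PSMB8 was at 5.91 and 4.88 in the L animals and 4.83, 5.62 and 6.66 in the H animals, so each group held a low and a higher animal. PSMB10 was at 7.19 and 7.78 against 7.29, 8.03 and 7.54. The 2 subunits of the one particle did not share an order of animals: BC6 was the highest for PSMB8 and in the middle for PSMB10, and BC2 was second for PSMB8 and the lowest for PSMB10.

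PSME1 was at 9.89 and 10.25 in the L animals and 10.04, 10.75 and 10.02 in the H animals. PSME2, 1 gene away from it, was at 8.77 and 8.99 against 8.58, 9.43 and 8.85. BC5 was the highest and BC3 the second highest for both activator subunits, with the rest lower. H minus L ranged from 0.07 for PSME2 to 0.31 for PSMB8, each smaller than the SD among the H animals.

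Of the genes of peptide transport and class I assembly, TAP1 encodes a chain of the peptide transporter. It was at 8.56 and 8.78 in the L animals and 8.68, 9.66 and 8.59 in the H animals, with BC5 alone above the rest and the other 4 within 0.22 of each other. Of the 3 probe sets of TAP1 only this 1 was above the floor, so the pattern rests on it alone. TAPBP, which encodes tapasin, the protein that holds class I molecules at the transporter, ranged from 4.64 in BC2 to 5.16 in BC5. The difference of the group means was 0.31 (SE 0.43) for TAP1 and 0.25 (SE 0.18) for TAPBP.

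B2M, the invariant light chain of every class I molecule, was at 14.45 and 14.56 in BC2 and BC3 and at 14.71, 14.87 and 14.57 in BC4, BC5 and BC6. All 3 H animals were above both L animals, though BC6 and BC3 all but touched. H minus L was 0.21 on the log2 scale (SE 0.11, 95% interval -0.12 to 0.55, adjusted p = 1 from limma). B2M has 9 probe sets, and H was higher in 6 and lower in 3 of them, with differences from -0.45 to 0.87. At the chosen probe set the fold size of the difference was 1.16.

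**Figure D3:**
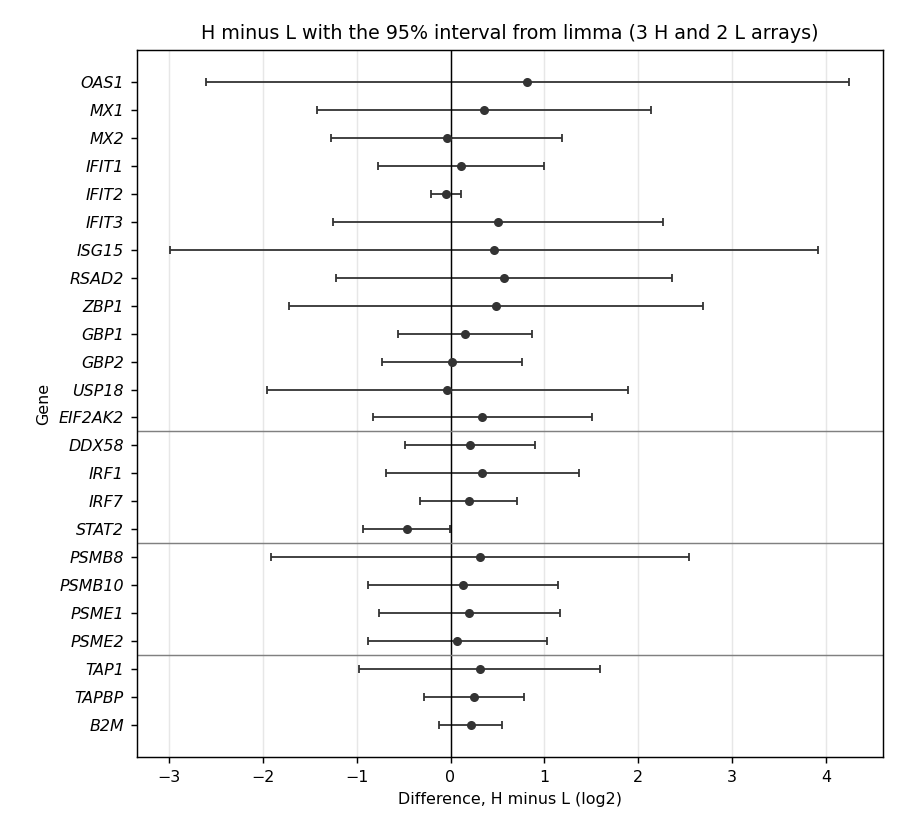
Difference between the group means, H minus L on the log2 scale, for the 24 genes above the floor (points) with the 95% interval from limma (bars, 3 H and 2 L arrays), with horizontal lines between the roles. The points of 20 genes lie to the right of 0, and only the interval of STAT2 (-0.93 to -0.0026) does not include 0.

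Taken over all 24, the H mean was above the L mean in 20 members, against 50.0% of all genes above the floor, and the median of H minus L was 0.21, against 0.00. The arrays of the groups did not overlap in 2 members (B2M with H higher and STAT2 with H lower), against 18.4% of all genes. Members are not replicates, and the same 5 animals lie behind each. The count of members with groups that did not overlap rose to 11 without BC4, 10 of them with H higher, while the share of all genes also rose, to 32.9%. Without BC3 it was 12 of 24 with 52.3% of all genes, without BC2 5 with 38.4%, without BC6 4 with 32.5%, and without BC5 it stayed at 2 with 27.6%.

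The animal with the highest value was BC5 for 14 members (22.2% of all genes), BC6 for 5 (20.6%), BC3 for 3 (16.4%), BC2 for 1 (22.0%) and BC4 for 1 (15.9%). The lowest value was in BC2 for 11 members (23.9% of all genes), in BC4 for 11 (12.4%), in BC5 for 2 (26.5%), and in BC3 (9.9%) or BC6 (18.5%) for 0. BC6 was above BC5 in 8 of 24 members, against 50.0% of all genes. For the effectors the median of the values centred per gene was -0.36, 0.02, -0.55, 0.27 and 0.43 in BC2 to BC6, so both BC5 and BC6 stood high. For the immunoproteasome and its activator (4 genes) it was -0.23, 0.06, -0.31, 0.49 and -0.05, highest in BC5. PSMB8, 1 of these 4, stood at 1.08 in BC6 and 0.04 in BC5. For peptide transport and class I assembly (3 genes) it was -0.30, -0.07, 0.08, 0.24 and -0.13, again highest in BC5. TAPBP, 1 of these 3, was at 0.20 in BC4 and 0.23 in BC5. These are descriptions of 5 animals, and a difference between roles was not tested.

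**Figure D4:**
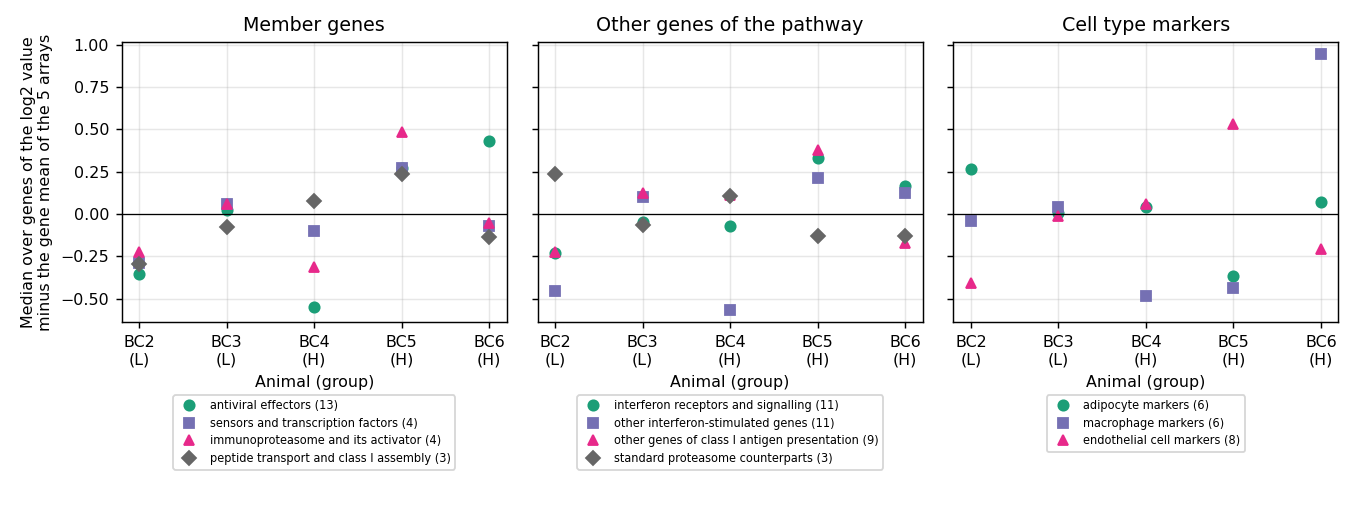
Median over genes of the log2 value minus the mean of the gene over the 5 arrays, per animal, for the members by role (left), other genes of the pathway (middle) and cell type markers (right), with the number of genes in parentheses. The effectors are high in BC5 and BC6 (0.27 and 0.43) and the antigen processing roles are highest in BC5. Macrophage markers peak in BC6 (0.94) and endothelial markers in BC5 (0.53).

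Cell type markers moved with the animals too. Of 9 adipocyte markers, 6 were measured, all above the floor, with a summed level (log2) of 15.9 to 16.0 in H and 15.9 to 16.1 in L. Their centred median was lowest in BC5 (-0.37) and highest in BC2 (0.27). All 6 macrophage markers measured of 10 (among them CD163, AIF1 and C1QA) were highest in BC6, where their summed level was 10.9, against 9.35 to 9.38 in the other H animals and 9.97 to 10.0 in L. ITGAM, 1 of these 6, stayed next to the floor. Of 8 endothelial markers, 7 were highest in BC5, whose summed level was 14.2, against 13.3 to 13.6 in the other H animals and 13.1 to 13.7 in L. KDR, 1 of these 7, left the floor only in BC5, at 2.21. Of 9 lymphocyte markers measured of 13, CD3D, CD3E, CD3G, CD2 and CD79B were at the floor on every array. CD4 (2.19 on every array) and LCK (2.17 to 2.26) lay next to it. Only CD8A (3.26 to 4.09) and CCL5 (2.61 to 3.34) stood further above the floor. The summed level, 5.58 to 5.86, thus includes floor values and says little about lymphocytes. BC4 and BC5, whose effectors differed by a median of 0.97, had macrophage levels of 9.38 and 9.35 and endothelial levels of 13.6 and 14.2. The part of these cell types in the members' values was not tested.

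The control probe sets for RNA quality differed between animals too. The GAPDH signal at the 3′ end exceeded that at the 5′ end by 2.49 on the log2 scale in BC5, against 1.52 to 1.90 in the other animals. For actin the excess was 4.80 in BC5 and 4.77 in BC3, against 3.85 to 4.06 in the rest. For the control EF1A it was 1.0025 in BC5, against 0.6612 to 0.7739 in the other animals. BC5 thus stood apart on GAPDH and EF1A and shared its place with BC3 on actin. The part of RNA quality in the members' values was not tested. The array medians were alike, at 4.24 to 4.32. The submitters' extraction note names liver, but the hepatocyte markers APOH and SERPINA1 never left the floor and ALB lay at 2.58 to 4.69, whereas APOA1 lay at 11.3 to 12.6. Of the 8 hepatocyte markers 6 were above the floor, and their summed level, 12.2 to 12.6 in H and 11.3 to 12.0 in L, was set by APOA1 alone.

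The rest of the interferon pathway was read from lists of known role. Of 24 symbols for receptors and signalling (2 genes under both of their names), 12 were measured and 11 were above the floor. None passed the thresholds, the H mean was higher in 10, and the median of H minus L was 0.27. In 4 of the 11 (IFNAR1, IFNAR2, IFNGR1 and TBK1) all 3 H animals were above both L animals, against the 18.4% of all genes whose groups did not overlap in either direction.

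IFNAR1 and IFNAR2 encode the chains of the type I interferon receptor. IFNAR2 was at 6.14 and 7.27 in the L animals and 7.28, 8.30 and 7.75 in the H animals, with BC2 far below the rest and BC4 hardly above BC3. IFNAR1 was at 6.97 and 7.19 against 7.27, 7.79 and 7.77. Both chains had BC5 at the top, then BC6, BC4, BC3 and BC2. H minus L was 0.52 (SE 0.22) for IFNAR1 and 1.07 (SE 0.54) for IFNAR2, both with an adjusted p = 1 from limma.

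IFNGR1, the ligand-binding chain of the interferon gamma receptor, was at 9.96 and 9.83 in the L animals against 10.21, 10.87 and 10.19. TBK1, the kinase that activates IRF3, was at 8.47 and 8.54 against 8.78, 9.0 and 8.56. BC5 was the highest for both, and BC6 was just above the higher L animal for TBK1.

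Of 30 other interferon-stimulated genes, 11 were measured, and 0 passed, 7 had a higher H mean and the median of H minus L was 0.09. BC4 was the lowest H animal in 10 of these 11, against 24.4% of all genes. BC5 was above BC4 in all 11, by 0.02 to 1.75, so BC4 was low in this list outside the members as well. The other lists differed in this. BC4 was the lowest H animal in 6 of 11 genes of receptors and signalling. It was so in 1 of 9 other genes of class I presentation and 0 of 3 standard proteasome subunits. XAF1, a promoter of cell death, was at 3.48 and 4.58 in the L animals and 3.89, 5.64 and 5.14 in the H animals. SP110, a nuclear body protein, differed by 0.41 (SE 0.25) as H minus L, PLSCR1, a phospholipid scramblase, by -0.45 (SE 0.35), and DTX3L, a ubiquitin ligase, by -0.21 (SE 0.17).

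Of 14 other genes of class I presentation, 9 were measured, 4 had a higher and 5 a lower H mean, none passed, and the median was -0.09. PDIA3, a disulphide isomerase of the loading complex, was at 9.01 and 9.09 in the L animals and 9.36, 9.63 and 9.16 in the H animals, which did not overlap. The class I heavy chains SLA-6 and SLA-7 each differed by 0.47 (SE 0.38 and 0.41). The other heavy chains measured differed by -0.14 (SLA-2, SE 0.27), 0.11 (SLA-3, SE 0.30) and -0.09 (SLA-8, SE 0.80), so they shared no direction. SLA genes are related in sequence, and their probe sets may share signal. PSME3, the activator subunit of the nucleus that interferon does not raise, differed by -0.68 (SE 0.41).

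The standard catalytic subunits PSMB5, PSMB6 and PSMB7, whose places PSMB8, PSMB9 and PSMB10 take in the immunoproteasome, all had a lower H mean, by -0.20, -0.12 and -0.13, and none passed. All 3 were highest in BC2, the animal that was lowest for 11 of 24 members. PSMB6 was at 10.73 and 10.69 in the L animals and 10.68, 10.57 and 10.51 in the H animals, which did not overlap though they lay within 0.22 of each other.

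**Figure D5:**
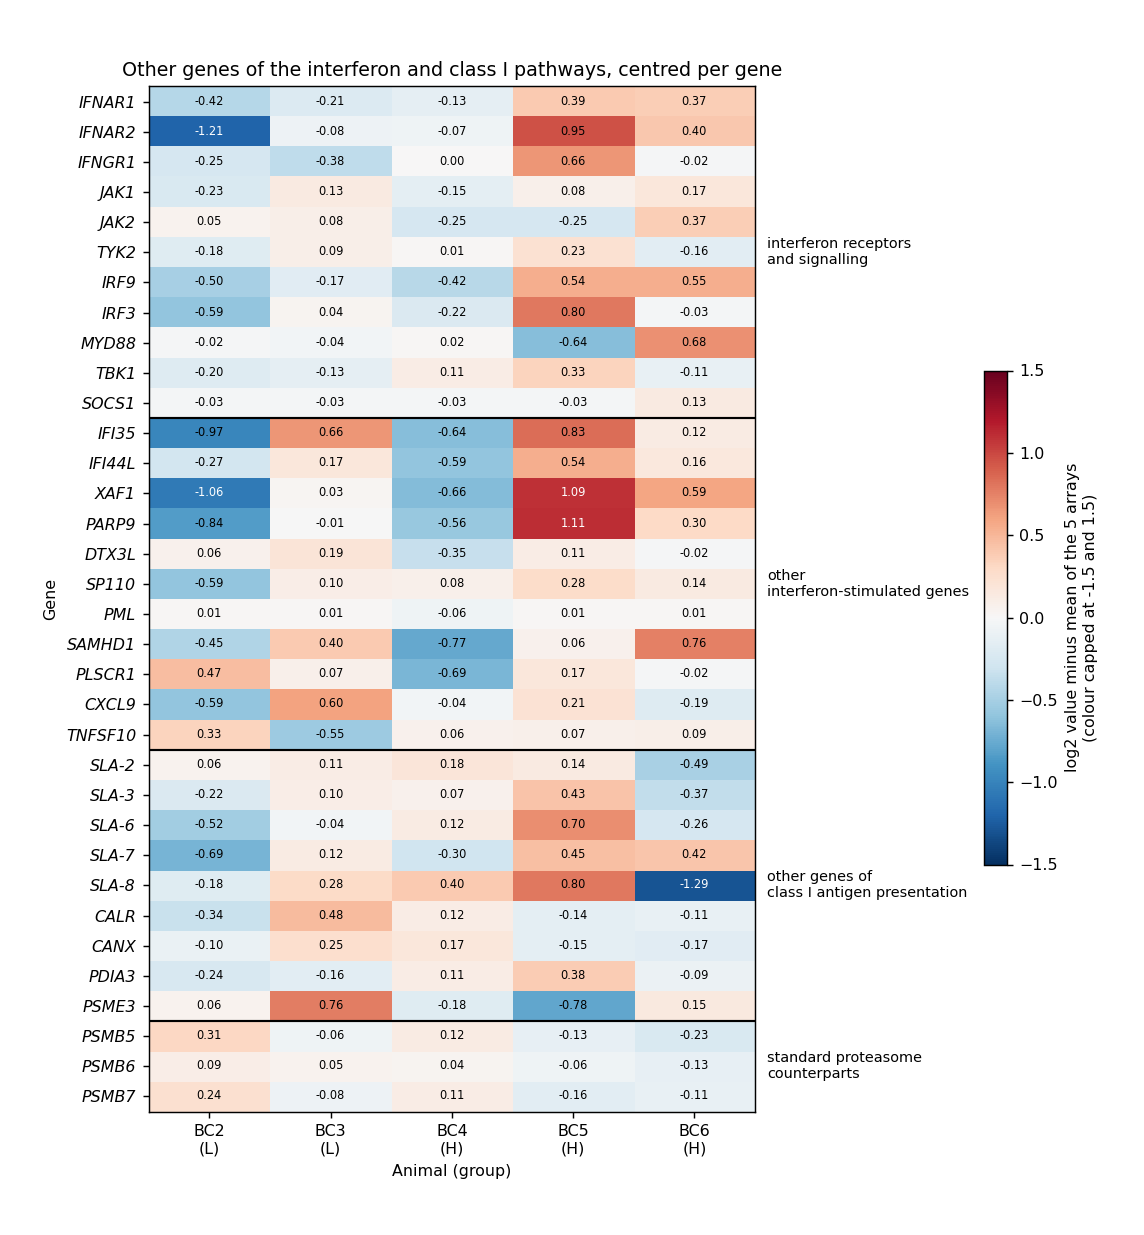
Log2 value minus the mean of the gene over the 5 arrays for the 34 other pathway genes above the floor, with genes in rows by list and animals in columns (groups in parentheses, colour capped at -1.5 and 1.5). XAF1, PARP9 and IFI35 are low in BC2 and BC4 and high in BC5, and the 3 standard proteasome subunits are highest in BC2.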

How the data were processed

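Backfat RNA of 5 pigs was hybridised to Affymetrix porcine arrays, 1 per animal (3 H and 2 L). The labels name only the animals, and the group of each animal was taken from the paper. Before deposition the authors corrected the background, normalized the arrays and reduced each probe set to 1 log2 value. The methods name GCRMA and the submitters' processing notes RMA, and which one made the values was not settled. Liver appears in the extraction note, but backfat is the tissue in the label and the paper. The lowest value (the floor) is 2.17 and the highest 16.1, and precision is limited by the number of arrays.

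After removal of 124 control and 64 reporter probe sets, the contrast H minus L was fitted to 23935 with limma 3.58.1 (R 4.3.3), without covariates. Passing needed p of at most 0.01, adjusted p (Benjamini-Hochberg) of at most 0.1 and at least a 1.2-fold difference. In all, 10069 probe sets had 1 symbol, 198 several and 13668 none, and those with several, 2 of IFITM3 among them, named no gene. A gene was above the floor if any array exceeded it by 0.01.

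The members, lists and markers were chosen with earlier results of these data known. By rule, every measured member is named, with all 5 values where its SD exceeded the median SD of all genes or its groups did not overlap, and of each pathway list up to 4 genes with the smallest p. RefSeq (Sscrofa11.1) gave the order of genes only. The alternatives were other scalings, variance models, array weights, filters, thresholds and probe sets, and leaving out each animal. The fit was tested on simulated data. The RNA-Seq data and sequences were not used here.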

Additional observations from a re-analysis of the deposited data

How the results depend on the processing

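With all 5 arrays, 0 probe sets and 0 members passed under every scaling, variance model, filter, threshold and choice of probe set tried. Leaving out 1 animal, the number of probe sets passing ranged from 0 to 286 (159 without BC2 and 286 without BC3), with 0 members among them. Without BC2 or BC3 the L group is 1 animal, assumed to vary like the 3 H animals, on whose spread those counts rest. The members at an unadjusted p under 0.05 were 1 as reported, 2 with the mean of a gene's probe sets, 0 with array weights, and 0 to 3 leaving out 1 animal. Those whose groups did not overlap were 2 to 12 leaving out 1 animal, and 2 with every other setting. The H mean was higher in 14 to 21 members and the median of H minus L lay between 0.07 and 0.40 over all settings. Leaving out members below the array medians, chosen after the data were seen, changed none of these calls.

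Of 24 members, 10 (OAS1, IFIT3, RSAD2, ZBP1, EIF2AK2, IRF1, IRF7, STAT2, TAPBP and B2M) kept their direction in every setting, though not their size. The settings did not try each probe set alone, and 3 of the 9 probe sets of B2M had a lower H mean. Leaving out 1 animal, OAS1 ranged from 0.050 (without BC6) to 1.54 (without BC4), IFIT3 from 0.17 to 0.95, RSAD2 from 0.26 to 1.01, ZBP1 from 0.12 to 1.06, EIF2AK2 from 0.17 to 0.65, IRF1 from 0.093 to 0.58, IRF7 from 0.087 to 0.32, STAT2 from -0.66 to -0.27, TAPBP from 0.096 to 0.40 and B2M from 0.14 to 0.29. With all arrays, H minus L turned to -0.027 for IFIT1, -0.050 for ISG15 and -0.062 for PSME2 with array weights, to 0.090 for IFIT2 with the mean of its probe sets and 0.33 with the one of largest SD, and to -0.028 and -0.0052 for GBP2 with median centring and quantile normalization. For those that turned when 1 animal was left out, it ranged from -0.045 to 0.77 for MX1, -0.52 to 0.44 for MX2, -0.061 to 0.34 for IFIT1, -0.051 to 1.40 for ISG15, -0.10 to 0.40 for GBP1, -0.33 to 0.36 for GBP2, -0.40 to 0.48 for USP18, -0.084 to 0.50 for DDX58, -0.21 to 0.83 for PSMB8, -0.17 to 0.43 for PSMB10, -0.041 to 0.38 for PSME1, -0.17 to 0.26 for PSME2 and -0.034 to 0.50 for TAP1. The cause was not tested. No paired analysis was possible because H and L are different animals and no pairing between them is given. A probe set near the floor bounds a level only from above.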

Other observations

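Neighbouring genes did not always share an order of animals. PSMB8 and TAP1 adjoin each other, with 0 genes between them, and PSMB8 was highest in BC6 (6.66) and TAP1 in BC5 (9.66). BC6 stood 1.04 above BC5 for PSMB8 and 1.07 below it for TAP1, on the log2 scale. GBP1 and GBP2 adjoin as well and differed in the animal at the top, whereas PSME1 and PSME2, with 1 gene between them, had BC5 at the top and BC3 next.

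Among the class I heavy chains, SLA-8 was at 7.18 in BC6, against 8.29 to 9.27 in the other 4 animals, while SLA-7 in BC6 was at 7.70, next to the highest value of 7.73 in BC5. SLA genes are related in sequence, and what each probe set reads from a given animal's alleles was not tested. LEP, the adipocyte hormone, was at 4.41 in BC5, against 8.27 to 10.5 in the other 4 animals.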
